A study of Homo sapiens with 4 samples.

Results

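Base excision repair removes small damage to DNA bases, such as oxidised, deaminated or alkylated bases. A DNA glycosylase cuts the damaged base from the sugar, APEX1 cleaves the backbone at the abasic site that is left, and a polymerase and a ligase fill and seal the gap. POLB, XRCC1 and LIG3 serve the short-patch route, PARP1 senses the open strand, and a long-patch route borrows enzymes of DNA replication. The expression of 10 genes of this pathway was examined by RNA-seq in UM-UC-3, an established cell line from a human bladder cancer: APEX1, UNG, OGG1, MUTYH, NTHL1, NEIL1, XRCC1, POLB, LIG3 and PARP1. They were chosen by symbol among the 25719 genes listed in the control table, and all 10 were found in the 4 tables. The set was proposed with the values of these libraries known, so the changes below are a description and carry no test.

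The cells were transfected with 75 nM siRNA and harvested after 48 h, with 1 library for each condition. The control library received a negative control siRNA. In the si-hnRNPK library HNRNPK was targeted, which encodes an RNA- and DNA-binding protein of the nucleus, and in the si-PTBP1 library PTBP1, which encodes a splicing regulator. The library labelled si-lncRNA-LBCS received siRNAs against the long non-coding RNA of that name. All 4 libraries share the cell line, the siRNA dose, the transfection reagent and the harvest time, and the other 3 are all compared with the same control library. With 1 library per condition there is no replicate spread, and a difference has no check against the variation between cultures. In bulk RNA, fewer cells that express a gene and less of its RNA per cell cannot be told apart.

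The siRNA sequences decide which mRNAs each duplex can reach, so they are shown here as the labels give them, as sense strands. Capitals mark bases 12 to 18, which read like the site in an mRNA that pairs with bases 2 to 8 of the guide strand, the seed.
control siRNA: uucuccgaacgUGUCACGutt
si-hnRNPK siRNA-1: ggguuguagagUGCAUAAatt
si-hnRNPK siRNA-2: gccuccaucuaGAAGAGAutt
si-lncRNA-LBCS siRNA-1: gcugcucauuuGUCUGAUctt
si-lncRNA-LBCS siRNA-2: ggugguagucaACACAAAutt
si-PTBP1 siRNA-1: gccucaacgucAAGUACAatt
si-PTBP1 siRNA-2: cccucauugacCUGCACAatt
In the principal coding transcript of each gene, the closest site for any of the 6 siRNAs other than the control had 6 or 7 mismatches over the 19 paired bases. APEX1 and MUTYH held 0 seed sites, and the other 8 genes held between 1 (UNG, NTHL1, NEIL1 and PARP1) and 4 (LIG3). In the 3′ UTR, a seed site of a si-hnRNPK duplex was present in UNG and LIG3, of a si-lncRNA-LBCS duplex in OGG1, and of a si-PTBP1 duplex in NEIL1 and LIG3. LIG3 also held 1 site for the seed of the control siRNA in its 3′ UTR.

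The libraries held between 54301152 and 70232674 reads on listed genes, where 3 reads correspond to between 0.0427 and 0.0552 CPM (a gene's reads over those of its library, on a fixed common scale). HNRNPK was at 783.1 CPM in cells given control siRNA, and si-hnRNPK left 187.8 CPM, 24.0% of control. PTBP1 stood at 280.0 CPM in the control cells, and si-PTBP1 left 89.7 CPM, 32.04% of control. The gene matched by the lncRNA-LBCS siRNAs, AL022068.1, was at 1.79 CPM (110 reads) with control siRNA. Under its own siRNAs it was at 1.47 CPM (103 reads), 81.8% of control, so this level does not show the knockdown. It was at 3.43 CPM (186 reads) with si-hnRNPK and 3.82 CPM (214 reads) with si-PTBP1. Among epithelial markers in the control library, KRT8 and KRT18 were at 63.0 and 121.4 CPM, while the uroplakins UPK1A, UPK1B and UPK2 were under 1 CPM and UPK3A and CDH1 were not listed. The mesenchymal markers VIM and ZEB1 were at 2343 and 124.4 CPM. Of 6 white blood cell markers only CD14 was listed, at 0.0652 CPM or less.

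Changes are differences in log2(CPM + 1) against the control library, which makes the change of weakly expressed genes look smaller, and the ranges in brackets are 95% counting intervals (exact Clopper-Pearson), which cover counting error only. A gene was counted as measured in a comparison when it reached 1 CPM in at least one of both libraries, and "fell" and "rose" refer to a change of at least 1. By this rule 9 of the 10 genes were measured in each comparison, and NEIL1 was not. The level per kilobase of the principal transcript was highest for APEX1 in the control library, at 69.0 CPM per kb. PARP1 followed at 38.2, UNG at 28.4, POLB at 22.9, NTHL1 at 16.96, XRCC1 at 10.0, MUTYH at 8.58, OGG1 at 5.12, LIG3 at 4.90 and NEIL1 at 0.247 CPM per kb.

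**Figure D1:**
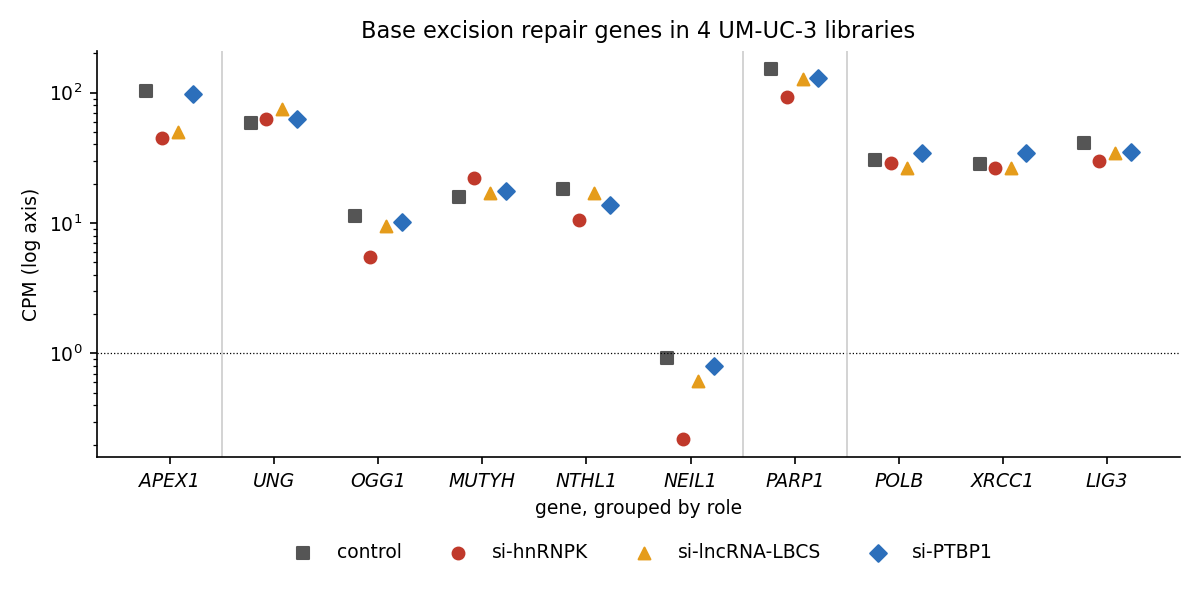
Expression of the 10 base excision repair genes in the control, si-hnRNPK, si-lncRNA-LBCS and si-PTBP1 libraries, as CPM on a log axis, with 1 point per library and the 1 CPM limit dotted. APEX1 lies at 45.1 and 49.5 CPM in the si-hnRNPK library and the si-lncRNA-LBCS-labelled library, and at 102.4 and 97.9 CPM in the control and si-PTBP1 libraries, while NEIL1 stays under 1 CPM in all 4.

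APEX1 (ENSG00000100823, chr14:20455191-20457772 of GRCh38, plus strand), the main abasic site endonuclease of human cells and also a redox cofactor of transcription factors, was low in both the si-hnRNPK library and the si-lncRNA-LBCS-labelled library and not in the si-PTBP1 library. With control siRNA it was at 102.4 CPM (6285 reads), against 45.1 CPM (2449 reads) with si-hnRNPK, 49.5 CPM (3476 reads) in the si-lncRNA-LBCS-labelled library and 97.9 CPM (5488 reads) with si-PTBP1. Each value is from 1 library, and which libraries are called low was decided after seeing the values. APEX1 fell by 1.17 on the log2(CPM + 1) scale in the si-hnRNPK library (-1.23 to -1.10), to 44.0% of control. It fell by 1.03 in the si-lncRNA-LBCS-labelled library (-1.09 to -0.98), to 48.3% of control. Its change in the si-PTBP1 library was -0.06 (-0.12 to -0.01), at 95.6% of control.

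The comparisons share the control library, so APEX1 was also set against the si-PTBP1 library, an alternative chosen after seeing the data. The si-PTBP1 library exceeded the si-hnRNPK library by 1.10 (1.03 to 1.17) and the si-lncRNA-LBCS-labelled library by 0.97 (0.91 to 1.03), the latter just short of 1. The si-lncRNA-LBCS-labelled library exceeded the si-hnRNPK library by 0.13 (0.06 to 0.20). Against the geometric mean of the other 3 libraries, which include the other low library, the changes were -0.80 for si-hnRNPK and -0.62 for the si-lncRNA-LBCS-labelled library. Among all genes, 276 fell more than APEX1 in the si-hnRNPK library (2.02% of 13672) and 119 in the si-lncRNA-LBCS-labelled library (0.882% of 13492).

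The genes on either side of APEX1 did not show its pattern. OSGEP, which encodes a tRNA-modifying enzyme, starts 86 bases away on the opposite strand (chr14:20446411-20455105) and was at 34.2, 34.7, 34.6 and 41.7 CPM in the control, si-hnRNPK, si-lncRNA-LBCS and si-PTBP1 libraries. Its change was 0.02 in both libraries in which APEX1 fell (-0.07 to 0.11 in si-hnRNPK and -0.06 to 0.10 in the si-lncRNA-LBCS-labelled library), and 0.28 in the si-PTBP1 library. PIP4P1, on the opposite strand downstream (chr14:20457719-20461612), was at 25.01, 28.1, 23.8 and 26.6 CPM in the same order, with changes of 0.16, -0.07 and 0.08. Its annotated exons share 54 of the 1886 exon bases of APEX1.

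**Figure D2:**
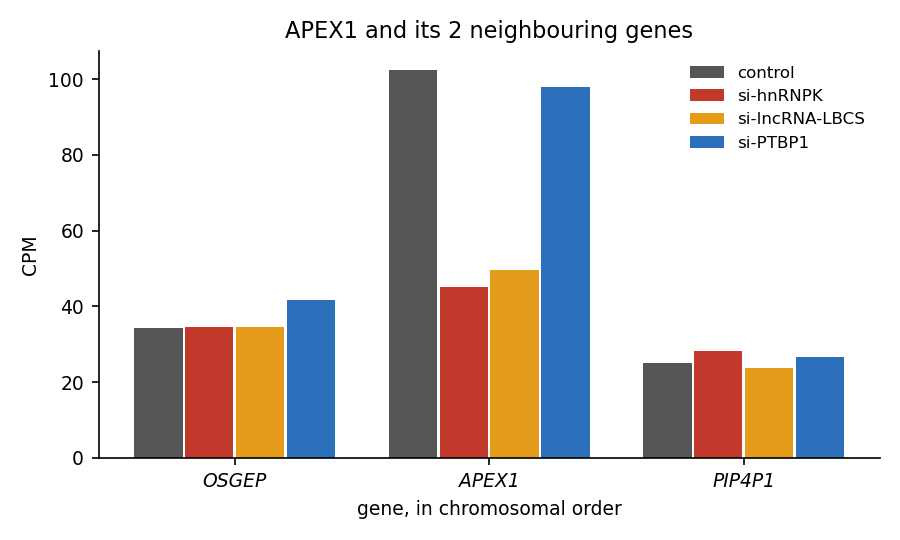
CPM of OSGEP, APEX1 and PIP4P1, in chromosomal order, with 1 bar per library and no error bars because each condition has 1 library. APEX1 is at 45.1 and 49.5 CPM in the 2 libraries where it is low, while OSGEP stays between 34.2 and 41.7 CPM and PIP4P1 between 23.8 and 28.1 CPM in all 4.

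The promoter of APEX1 is shown because OSGEP, on the opposite strand, starts inside the window searched here. OSGEP differed from control within counting error in both libraries in which APEX1 fell. RefSeq windows of GRCh38.p14, from 250 bases before to 50 after each start, were searched for the E-box CACGTG, which reads the same on both strands, and for CCAAT and CCCTCCC on both strands. The APEX1 window (chr14:20454976-20455275, plus strand) held 3 copies of CACGTG, whose first bases lie at -105, -44 and -23 from the start. All 3 copies lie between this RefSeq start and the annotated start of OSGEP at chr14:20455105. The annotated position of APEX1 given above begins earlier, at chr14:20455191, so the third copy lies inside the gene by that annotation. The first and second copies are upstream of the annotated starts of both genes. The 30 bases around the first and second copies follow, with the motif in capitals.
APEX1 chr14:20455109-20455138, plus strand: aagcgtctccgtCACGTGgtgtcagacaga
APEX1 chr14:20455170-20455199, plus strand: cgcgcctctgatCACGTGaccaggtccgct
Of 35116 windows of the same length, 7.26% held CACGTG at least once and 33 (0.0940%) held it at least 3 times. Among the other genes of the set, CACGTG was found once in the windows of NTHL1 and LIG3 and at 2 places in 1 of the UNG windows, and in none of the MUTYH, PARP1, OGG1, NEIL1 and XRCC1 windows. The APEX1 window also held 1 CCAAT (34.6% of all windows) and 1 CCCTCCC (26.6%). These matches describe letters and no binding was measured.

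The genes whose 3 changes lay nearest to those of APEX1, among genes that reached 10 CPM in every library, were PXN, BANF1, SPEN, SCAF4 and ARID1A. Likeness was the Euclidean distance over the 3 changes, each from 1 library against the shared control library. PXN, which encodes the focal adhesion protein paxillin, was nearest at a distance of 0.0432, with 62.1, 26.9, 30.6 and 60.2 CPM in the control, si-hnRNPK, si-lncRNA-LBCS and si-PTBP1 libraries. BANF1, which encodes a DNA-bridging protein of the nuclear envelope, followed at 0.0721 and SPEN, a transcriptional repressor, at 0.0781. SCAF4 was at 0.109 and ARID1A, a subunit of the SWI/SNF chromatin remodeller, at 0.143.

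Among the glycosylases, the levels of OGG1 and NTHL1 were lower in the si-hnRNPK library while that of MUTYH was higher. OGG1 (ENSG00000114026, chr3:9749944-9788219, plus strand), which removes 8-oxoguanine, was at 11.4 CPM with control siRNA, 5.47 with si-hnRNPK, 9.47 in the si-lncRNA-LBCS-labelled library and 10.2 with si-PTBP1. The si-hnRNPK library was the lowest, at 48.2% of control, a change of -0.93 (-1.11 to -0.76) that did not reach 1. With 0.1 CPM as the pseudocount it was -1.04. The change of OGG1 was -0.24 (-0.38 to -0.10) in the si-lncRNA-LBCS-labelled library and -0.15 (-0.29 to 0.00) in the si-PTBP1 library. On the opposite strand TADA3 shares 356 of the 8733 exon bases of OGG1, with changes of 0.43, 0.11 and 0.72, and CAMK1 shares 2180 but was under 1 CPM in all 4 libraries.

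MUTYH (ENSG00000132781, chr1:45329163-45340470, minus strand) removes adenine paired with 8-oxoguanine and so acts on the same lesion after replication. It was at 15.8, 22.2, 16.8 and 17.7 CPM in the control, si-hnRNPK, si-lncRNA-LBCS and si-PTBP1 libraries. The si-hnRNPK library was the highest, with a change of 0.47 (0.35 to 0.58), so that OGG1 and MUTYH stood on opposite sides of control there. The changes in the other libraries were 0.09 (-0.03 to 0.21) and 0.16 (0.04 to 0.28). TOE1, on the opposite strand, shares 552 of the 3909 exon bases of MUTYH and was at 30.2, 16.7, 20.8 and 18.4 CPM, lower in each of the other 3 libraries than in control.

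NTHL1 (ENSG00000065057, chr16:2039815-2047866, minus strand), which removes oxidised pyrimidines, was at 18.1 CPM in the control library, 10.5 in si-hnRNPK, 16.9 in the si-lncRNA-LBCS-labelled library and 13.7 in si-PTBP1. Its change was -0.73 (-0.87 to -0.60) in si-hnRNPK and -0.38 (-0.50 to -0.25) in si-PTBP1, the lowest value of a measured gene of the set in that comparison. It differed from control within counting error in the si-lncRNA-LBCS-labelled library, at -0.10 (-0.21 to 0.02). TSC2, on the opposite strand, shares 402 of 2430 exon bases with NTHL1 and had changes of -0.23, 0.15 and 0.25. UNG (ENSG00000076248, chr12:109097574-109110992, plus strand), which removes uracil, was at 58.9, 63.0, 74.2 and 62.9 CPM in the control, si-hnRNPK, si-lncRNA-LBCS and si-PTBP1 libraries. It was highest in the si-lncRNA-LBCS-labelled library, where APEX1 fell, with a change of 0.33 (0.27 to 0.39). The gene-level values do not separate the nuclear and mitochondrial isoforms of UNG. UNG and PARP1 have 2 annotated pseudogenes each, none of them listed in the tables, and reads shared with them cannot be told apart. NEIL1 (ENSG00000140398, chr15:75346955-75357114, plus strand), a glycosylase of oxidised bases, had 57, 12, 43 and 45 reads in the same order, or 0.929, 0.221, 0.612 and 0.803 CPM. Its change in si-hnRNPK was -0.66 (-0.85 to -0.41), or -1.68 when 0.1 CPM was the pseudocount, and it shares 1831 of 6938 exon bases with MAN2C1 on the opposite strand, a gene at 26.3 to 30.8 CPM.

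PARP1 (ENSG00000143799, chr1:226360691-226408079, minus strand), which binds strand breaks and builds poly(ADP-ribose), was at 151.0 CPM in the control library, 92.6 in si-hnRNPK, 126.2 in the si-lncRNA-LBCS-labelled library and 128.9 in si-PTBP1, so the control library was the highest of the 4. Its change was -0.70 (-0.75 to -0.65) in si-hnRNPK, -0.26 (-0.30 to -0.22) in the si-lncRNA-LBCS-labelled library and -0.23 (-0.27 to -0.18) in si-PTBP1. The last pair of libraries differed from each other within counting error.

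None of the short-patch genes changed by 1 or more. LIG3 (ENSG00000005156, chr17:34980494-35009743, plus strand), the ligase of this route and of mitochondria, was at 41.1, 29.6, 34.2 and 35.2 CPM in the control, si-hnRNPK, si-lncRNA-LBCS and si-PTBP1 libraries. Its changes were -0.46 (-0.55 to -0.37), -0.26 (-0.34 to -0.18) and -0.22 (-0.30 to -0.13). RFFL, on the opposite strand, shares 3754 of the 12919 exon bases of LIG3 and had changes of -0.62, -0.29 and -0.21, and whether the counting used strand is not given in the sources used here. POLB (ENSG00000070501, chr8:42338454-42371808, plus strand), the gap-filling polymerase, was at 30.4, 28.8, 26.5 and 34.4 CPM, with changes of -0.08 (-0.17 to 0.02), -0.19 (-0.28 to -0.10) and 0.17 (0.08 to 0.26). XRCC1 (ENSG00000073050, chr19:43543040-43580473, minus strand), the scaffold that holds POLB, LIG3 and PARP1 together, was at 28.1, 26.4, 26.5 and 34.5 CPM, with changes of -0.09 (-0.19 to 0.01), -0.08 (-0.18 to 0.01) and 0.29 (0.19 to 0.38). Both POLB and XRCC1 were highest in the si-PTBP1 library, and their values in si-hnRNPK turned to 0.03 and 0.02 with median-of-ratios scaling. PINLYP, RPL5P23 and CCT6B, which overlap XRCC1, POLB and LIG3, were under 1 CPM in all 4 libraries.

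**Figure D3:**
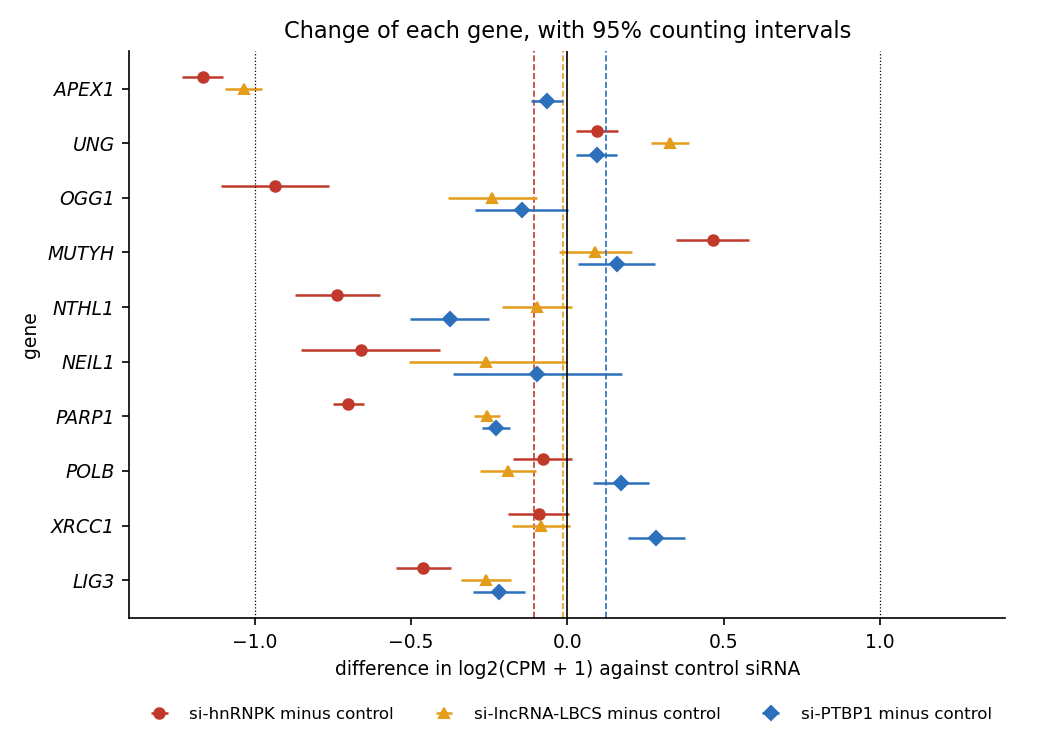
Change of each gene against the control library as the difference in log2(CPM + 1), with bars for 95% counting intervals. Dotted lines mark a change of 1 either way, and dashed lines in the colour of each comparison mark the median of all genes. APEX1 is past the line at -1.17 and -1.03 in the si-hnRNPK library and the si-lncRNA-LBCS-labelled library, OGG1 lies at -0.93 in si-hnRNPK, and NEIL1 is drawn although it was under 1 CPM in all libraries.

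Of the 9 measured genes, 1 (APEX1) fell in the si-hnRNPK library and 0 rose, where 3.93% of all 13672 genes fell and 3.55% rose. Their median change was -0.46, beside -0.11 for all genes, and 7 of the 9 were lower than control, beside 58.4% of all genes. Counting intervals lay below 0 for 5 genes, beside 47.9% of all genes, and above 0 for UNG and MUTYH, beside 32.4%. A fall of 1.5-fold or more was reached by APEX1, OGG1, NTHL1 and PARP1, 4 of 9, beside 15.8% of all genes. Without APEX1 the median of the remaining 8 was -0.28. In the si-lncRNA-LBCS-labelled library, 1 of 9 (APEX1) fell and 0 rose, beside 1.01% and 0.378% of 13492 genes. Lower values than control were found for 7 of the 9, beside 51.8% of all genes, with counting intervals below 0 for 5 (37.5% of all genes) and above 0 for UNG (34.7%). The median was -0.19, beside -0.01 for all genes, and APEX1 was the only gene of the set lower by 1.5-fold or more, beside 5.74% of all genes. In the si-PTBP1 library 0 of 9 fell and 0 rose, beside 0.613% and 2.92% of 13855 genes, and the median was -0.06, beside 0.12 for all genes. There 5 of the 9 were lower than control, beside 36.5% of all genes, and counting intervals lay below 0 for 4 (25.4% of all genes) and above 0 for 4 (49.7%). A fall of 1.5-fold or more was reached by 0 of the 9, beside 3.12% of all genes. The summed level of the 10 genes was 458.2 CPM in the control library, 323.7 in si-hnRNPK, 380.9 in the si-lncRNA-LBCS-labelled library and 436.2 in si-PTBP1.

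**Figure D4:**
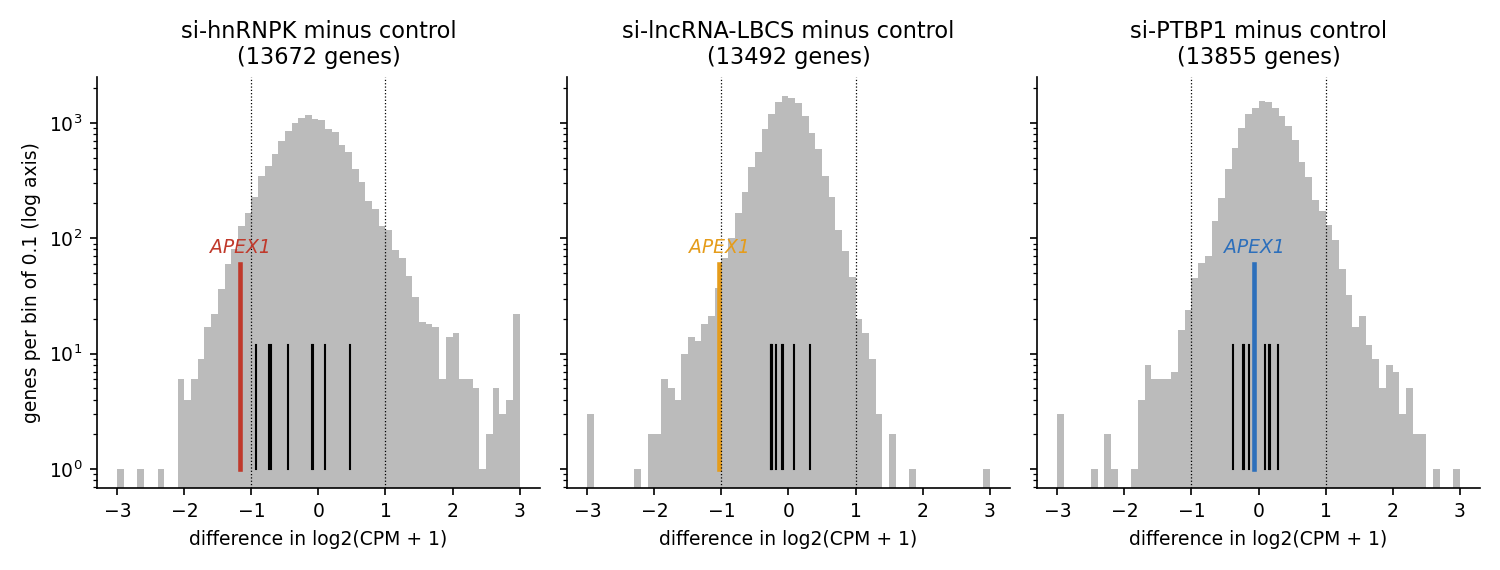
Histograms of the change of all measured genes against the control library, in bins of 0.1 with a log count axis and values beyond 3 placed in the end bins. The tall line marks APEX1 and the short lines the other measured base excision repair genes: APEX1 lies at -1.17, -1.03 and -0.06 in the si-hnRNPK, si-lncRNA-LBCS and si-PTBP1 comparisons, and the other genes lie between -0.93 and 0.47.

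The scale of the libraries matters for values this close to control. By median-of-ratios scaling, the shift of a library against control was -0.11 for si-hnRNPK, -0.01 for the si-lncRNA-LBCS-labelled library and 0.13 for si-PTBP1. With that scaling APEX1 was at -1.06 in si-hnRNPK and -1.03 in the si-lncRNA-LBCS-labelled library. Over all genes, 374 then fell and 610 rose in si-hnRNPK, in place of 537 and 486, and 132 fell and 256 rose in si-PTBP1, in place of 85 and 404.

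A wider list held 38 other genes of base excision and strand break repair, all of them measured. In the si-hnRNPK library 3 of the 38 fell (7.89%) and 0 rose, beside 3.93% and 3.55% of all genes. The median was -0.46, beside -0.11 for all genes, and 32 were lower than control, beside 58.4% of all genes. The genes that fell were LIG1, POLE and POLE2, which belong to the long-patch route and to replication. LIG1, the ligase that seals Okazaki fragments, was at 130.0 CPM in control and 50.6 CPM in si-hnRNPK, a change of -1.34 (-1.41 to -1.28). POLE, the catalytic subunit of the leading-strand polymerase, was at 111.7 and 53.1 CPM, a change of -1.06 (-1.12 to -0.997), and its partner subunit POLE2 at 49.2 and 23.1 CPM, a change of -1.06 (-1.15 to -0.97). LIG1 held 0 sites for a si-hnRNPK seed, and POLE and POLE2 held 1 each, outside the 3′ UTR. With median-of-ratios scaling only 1 of the 38 fell. The 16 long-patch and replicative genes had a median of -0.66, the 4 genes listed as other cofactors -0.61 and the 6 other glycosylases -0.46. The median was -0.28 for the 7 genes of abasic site and end processing and -0.21 for the 5 genes of ADP-ribose signalling. The highest values were those of APLF (0.55), POLD4 (0.46) and PARP3 (0.46).

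In the si-lncRNA-LBCS-labelled library 0 of the 38 fell and 0 rose, beside 1.01% and 0.378% of all genes, and the median was -0.05, beside -0.01. The lowest was HMCES, which shields abasic sites in single-stranded DNA by a covalent bond, at 30.7 CPM in control and 17.5 CPM there, a change of -0.78 (-0.88 to -0.68). HMCES was at 25.1 CPM in si-hnRNPK and 32.2 CPM in si-PTBP1. PARP2, a second sensor of strand breaks, was at -0.41 (-0.51 to -0.30). The highest values were those of SMUG1, a second uracil glycosylase (0.53), POLD4 (0.44) and TDG (0.32), and UNG, at 0.33, lay on the same side as SMUG1.

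In the si-PTBP1 library 1 of the 38 rose (2.63%) and 0 fell, shares near the 2.92% and 0.613% of all genes, and the median was -0.03, beside 0.12. TDG, which removes thymine and uracil opposite guanine and takes part in DNA demethylation, rose from 25.2 to 55.4 CPM, a change of 1.10 (1.02 to 1.19), and with median-of-ratios scaling 0 of the 38 rose. POLD4, a small subunit of polymerase delta, followed at 0.96 (4.37 and 9.45 CPM) and PARP3 at 0.56. The lowest values were those of FEN1, the flap nuclease of the long-patch route (-0.60), MBD4, another glycosylase of mismatched thymine (-0.59), and POLE3 (-0.54). TDG and MBD4, which act on the same mismatch, thus lay on opposite sides of control. In si-hnRNPK and the si-lncRNA-LBCS-labelled library MBD4 was at -0.74 and -0.40, and TDG at -0.22 and 0.32. MBD4 held 1 site for a si-PTBP1 seed, in its 3′ UTR, and TDG held 0. Whether this site lowered MBD4 was not tested.

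**Figure D5:**
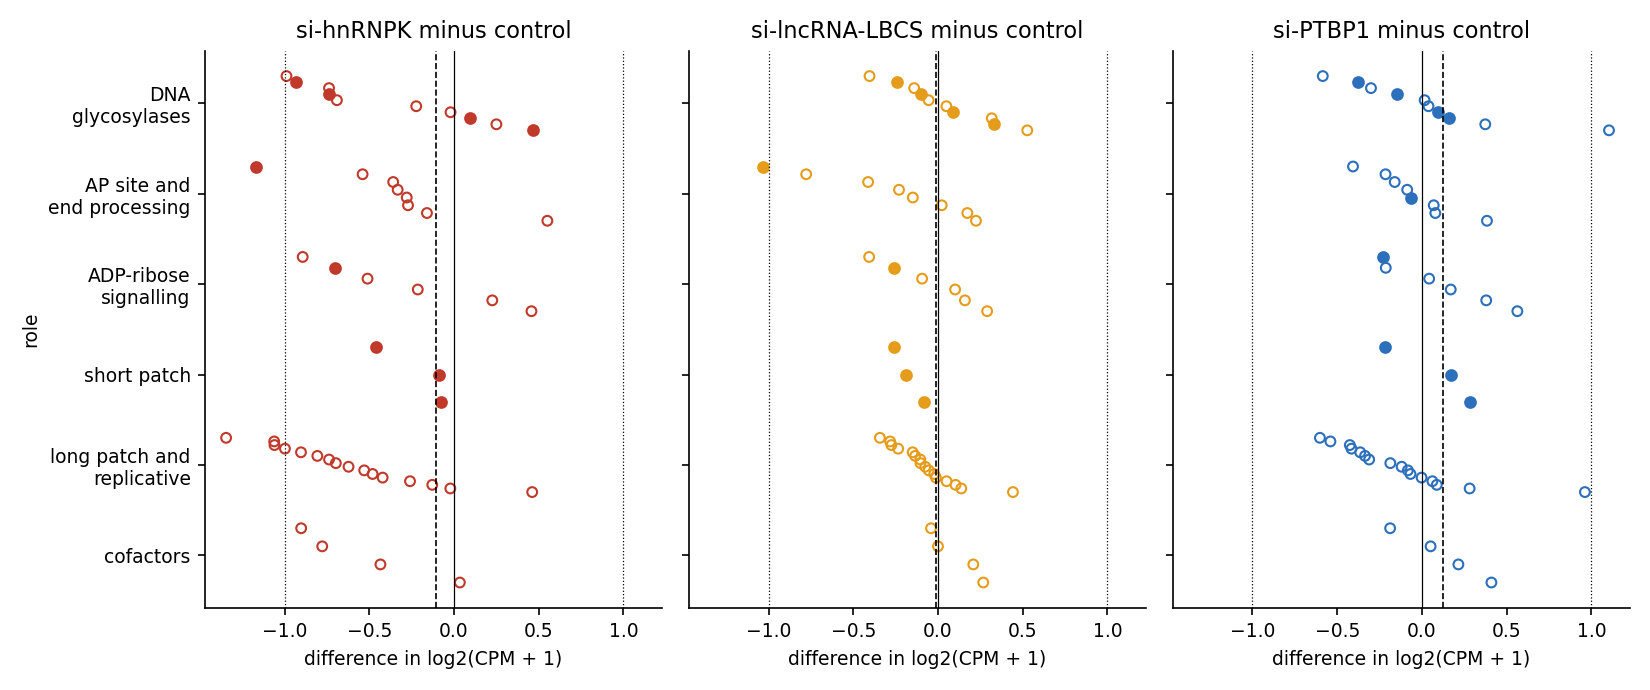
Change of the base excision repair genes against the control library by role, with filled points for the measured genes of the set of 10 and open points for the 38 genes of the wider list. Dotted lines mark a change of 1 either way and dashed lines the median of all genes. In si-hnRNPK the long-patch and replicative genes reach -1.34 (LIG1), in the si-lncRNA-LBCS-labelled library only APEX1 is past -1, and in si-PTBP1 TDG is at 1.10.

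The medians of other repair pathways and of S phase genes lay below that of all genes in si-hnRNPK. They were nearer to control in the other libraries, and in si-PTBP1 also below that of all genes. In si-hnRNPK, where 3.93% of all genes fell with a median of -0.11, 1 of 20 measured nucleotide excision repair genes fell (5%, median -0.28) and 6 of 22 homologous recombination genes fell (27.3%, median -0.53). The si-lncRNA-LBCS-labelled library had 0 falls in either list, beside 1.01% of all genes, with medians of 0.08 and -0.03, beside -0.01. In si-PTBP1 0 of either fell, beside 0.613% of all genes, with medians of -0.07 in both, beside 0.12. Of 27 measured S phase genes, none of which is on either base excision repair list, 11 fell in si-hnRNPK (40.7%, beside 3.93% of all genes) and all 27 were lower than control (beside 58.4%). Their median was -0.86 there, -0.19 in the si-lncRNA-LBCS-labelled library and -0.22 in si-PTBP1, beside -0.11, -0.01 and 0.12 for all genes. Their summed level was 3364 CPM in control, 1741 in si-hnRNPK, 2986 in the si-lncRNA-LBCS-labelled library and 2809 in si-PTBP1. All 15 genes of an interferon-stimulated list were higher than control in si-hnRNPK, and 14 of them rose (93.3%), beside 3.55% of all genes. Their summed level was 330.9 CPM in control and 2940 CPM in si-hnRNPK, beside 269.2 CPM in the si-lncRNA-LBCS-labelled library and 246.3 CPM in si-PTBP1. The part of these shifts in the base excision repair values was not tested.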

How the data were processed

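Total RNA of UM-UC-3 cells was sequenced by the authors as 100-base paired-end reads. The deposited values are CPM, a gene's reads scaled by the authors to a common library total. The submitters' processing notes name hg19, while the aligner, counter and strand setting are not given in the sources used here. Whole reads were recovered from 100% of the values above the placeholder (tolerance 1e-06 reads). Members and lists were chosen with earlier results of these data known. Named genes were all members, the siRNA targets, genes of the wider list past the threshold or among its 3 highest or lowest changes, genes overlapping or next to a member, and the 5 genes most like APEX1. A gene that this rule names is not reported here. Changes used a pseudocount of 1 CPM, a filter of 1 CPM in either library and a threshold of 1. No test across conditions was possible. A binomial test of reads gave q of at most 0.05 for 10894 (si-hnRNPK), 9513 (si-lncRNA-LBCS) and 10222 (si-PTBP1) genes. It compares libraries and not conditions. Positions, transcripts and exons are from GENCODE release 29 on GRCh38, matched by identifier, and promoters from RefSeq. POLB had no promoter entry. Scripts were tested on simulated data. Software versions were matplotlib 3.10.9, statsmodels 0.14.6, scipy 1.17.1, pandas 2.3.3, numpy 2.4.6 and Python 3.11.15.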

Additional observations from a re-analysis of the deposited data

How the results depend on the processing

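The count of base excision repair genes that fell in si-hnRNPK (1 of 9) was 2 with a pseudocount of 0.1, 4 with a threshold of 1.5-fold and 0 against the geometric mean of the other 3 libraries. In the si-lncRNA-LBCS-labelled library it was 0 against that mean and 0 against the si-PTBP1 library. The wider list in si-hnRNPK (3 fell) gave 5 with a pseudocount of 0.1, 15 at 1.5-fold, 1 with median-of-ratios or TMM scaling and 5 against si-PTBP1. At 1.5-fold it gave 1 fall in the si-lncRNA-LBCS-labelled library, and 2 falls and 2 rises in si-PTBP1, where a pseudocount of 0.1 gave 2 rises and either scaling 0. The median of the set in si-hnRNPK (-0.46) was -0.56 without a filter, -0.35 and -0.36 with median-of-ratios and TMM scaling, -0.30 against the geometric mean and -0.36 against si-PTBP1. In the si-lncRNA-LBCS-labelled library (-0.19) it was -0.033 and -0.068 against these references, and in si-PTBP1 (-0.06) it was -0.19, -0.18 and 0.092 under both scalings and the geometric mean. Over all genes a pseudocount of 0.1 gave 995 falls and 790 rises in si-hnRNPK, 353 and 165 in the si-lncRNA-LBCS-labelled library, and 173 and 793 in si-PTBP1, and the 1.5-fold threshold 2165 and 1352, 774 and 559, and 432 and 1673. Against si-PTBP1, 840 of 13895 genes fell and 330 rose in si-hnRNPK, and 312 of 13758 fell and 50 rose in the si-lncRNA-LBCS-labelled library. Against the geometric mean, 358 of 14150 genes fell and 317 rose in si-hnRNPK, and 104 fell and 6 rose in the si-lncRNA-LBCS-labelled library. The change of APEX1 ranged from -1.18 to -0.80 in si-hnRNPK and from -1.05 to -0.62 in the si-lncRNA-LBCS-labelled library. UNG in si-PTBP1 turned to -0.030 with median-of-ratios and -0.022 with TMM scaling. Against the geometric mean of the other 3 libraries, which averages in the remaining siRNA libraries, the sign turned for OGG1 (0.12), PARP1 (0.05), NTHL1 (0.27) and MUTYH (-0.12) in the si-lncRNA-LBCS-labelled library, for UNG in si-hnRNPK (-0.05) and for APEX1, UNG, MUTYH, NEIL1, OGG1, PARP1 and LIG3 in si-PTBP1. Against si-PTBP1, NTHL1 (0.28) and MUTYH (-0.068) in the si-lncRNA-LBCS-labelled library turned as well. What caused these shifts was not tested. Another 98 values of the lists were labelled the same: counts within 1.5 times, or medians within the medians of the genes' interval ends. Counts of 0 that stayed 0 are among them, and adding the binomial test changed no count over all genes. The 98 is therefore no measure of robustness, and leaving out replicates was not possible. No paired analysis was possible because each condition has 1 library.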
